A study of Mus musculus with 16 samples.

Results

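Cytochrome P450 genes of families 2, 3 and 4 were described in the liver of conventional mice that had received a caecal microbiota or vehicle. They were taken as all probes other than controls whose gene name begins with Cyp, then 2, 3 or 4, then a lower-case letter. This gave 108 probes under 80 gene names, out of 56605 probes and 37074 gene names on the array. Of these names, 79 are current RefSeq symbols. The pattern also takes in the pseudogenes Cyp2c53-ps, Cyp2d37-ps, Cyp4b1-ps2 and Cyp4f41-ps and the RNA Cyp4x1os, named for lying opposite to Cyp4x1.

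All 16 mice were C57BL/6 males fed a normal chow (NC), 10 weeks old at sampling by their labels, and had never received antibiotics. Conv + PBS mice (6) were gavaged with reduced PBS, although their labels read as not transplanted. Conv + LM mice (5) were gavaged with the caecal content of lean mice and Conv + OM(HFD) mice (5) with that of mice made obese by a high-fat diet (HFD-microbiota). The inocula were pooled from several donors and the recipients kept their own microbiota, so that the transferred bacteria met resident ones. Mice were housed in groups, and where a cage held a single group, cage and group cannot be told apart. Per the study's methods the mice lived on an inverted light cycle and were killed after a fast.

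P450 enzymes are haem proteins of the endoplasmic reticulum that add oxygen to their substrates, with electrons supplied by P450 oxidoreductase (Por) and cytochrome b5 (Cyb5a). In liver, families 2 and 3 oxidize drugs, steroids and other foreign or hydrophobic molecules, and many of their genes are induced through the nuclear receptors CAR (Nr1i3) and PXR (Nr1i2). Family 4 enzymes mostly hydroxylate fatty acids and eicosanoids, and its Cyp4a members are classic targets of PPARα (Ppara), the receptor that turns on fat oxidation during fasting.

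Each array had a single colour, and a value here is the log2 of the background-corrected Cy3 intensity of a probe minus the 75th percentile of its array. A value of 0 is therefore as bright as that percentile, and a difference of 1 is a doubling of brightness. The intensity of that percentile lay between 223.1 and 323.7, and between 49.75% and 58.33% of probes were well above background on an array. All 12 hepatocyte markers on the list, such as Alb and Ttr, were tested, while the intestinal genes Sis, Cdx1 and Cdx2, the airway gene Scgb1a1 and the pancreatic genes Prss1 and Cpa1 were above background on no array. Of the same lists, 4 of 8 intestinal, 2 of 5 airway and 5 of 9 pancreas and adipose markers were bright enough to be tested, the mean of the intestinal genes tested lying between 2.04 and 2.49, and none was called in any comparison. In a bulk sample, fewer cells of a type and less RNA per cell cannot be told apart. Conv + OM(HFD) mouse 25 stood apart for these enzymes: it had the lowest value of its group in 33 of the 63 tested members, 52.4% against 28.5% of all gene names tested, and fold changes that it moved most are also given without it. In the same group, mouse 30 had the highest value in 27 of the 63, 42.9% against 25.6% of all gene names. Mouse 25 also had the highest mean of 8 Kupffer cell markers of its group (2.12, against 0.66 to 1.45 in the others). Conv + PBS mouse 1 had a higher mean (3.27) and was the lowest of its group in 9 of 63 members, 14.3% against 23.9% of all gene names. The part of these cells in the P450 values was not tested.

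Of the 80 members, 59 were well above background on all 16 arrays, 11 on some and 10 on none. A gene was tested when a probe of it was above background on at least 5 arrays, which held for 63 members. Of these, 50 were brighter than the 75th percentile on all arrays, 79.4% against 43.7% of all 20404 gene names tested. Brightness differs between probes for reasons other than the amount of transcript, so genes were not ranked against each other. All 10 members of Cyp2d, all 7 tested members of Cyp3a, all 5 of Cyp2j and all 4 of Cyp2a lay above the 75th percentile on every array, as did Cyp2e1, which oxidizes ethanol and paracetamol, and Cyp2f2, which activates naphthalene. So did 11 of the 13 tested members of Cyp2c, 4 of 5 of Cyp4a and 4 of 7 of Cyp4f, together with Cyp2r1, a vitamin D 25-hydroxylase, and Cyp4v3, a fatty acid hydroxylase. Cyp2u1 is counted among the 50 only through its brightest probe, which holds a simple repeat, and its other probes averaged -0.77 and -1.16 in Conv + PBS mice. Neither Cyp2b gene tested, nor Cyp2g1, Cyp2s1, Cyp2t4, Cyp2w1 and Cyp4b1, did so.

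The 10 members above background on no array were Cyp2ab1, Cyp2b13, Cyp2c65, Cyp2c66, Cyp3a44, Cyp4a30b, Cyp4f37, Cyp4f40, Cyp4f41-ps and Cyp4x1os. Cyp2b13 and Cyp3a44 are known as female-biased in mouse liver. Other genes known for such a bias, namely Cyp2a4, Cyp2b9, Cyp2c40, Cyp2c69, Cyp3a16, Cyp3a41a and Cyp4f18, were tested and, for example, Cyp3a41a lay between 8.33 and 8.85 in the 16 males. Whether such probes also read a near-identical P450 was not tested. The other 7 untested members, Cyp2b19, Cyp2b23, Cyp2c39, Cyp2j11, Cyp4a29, Cyp4b1-ps2 and Cyp4x1, were above background on 1 to 4 arrays.

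Most of these enzymes differed little between mice of a group, and a few differed widely. The pooled within-group SD had a median of 0.25 over the 63 members and of 0.24 over all gene names tested. It was under 0.35 for 50 members, and 70.7% of all gene names were under that value. It exceeded 0.8 for 7 members, where 4.62% of all gene names did so. The 7 were Cyp4a14 (1.69), Cyp2b10 (1.03), Cyp4a31 (0.98), Cyp2b9 (0.97), Cyp4a10 (0.96), Cyp2s1 (0.95) and Cyp2g1 (0.89). Cyp4a14 lay at the 99.7th percentile of all gene names tested. The smallest SDs belonged to Cyp2j5 (0.087), an arachidonic acid epoxygenase, Cyp2j8 (0.093), Cyp2a5 (0.11), a coumarin hydroxylase, Cyp3a41a (0.12) and Cyp2f2 (0.13).

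**Figure D1:**
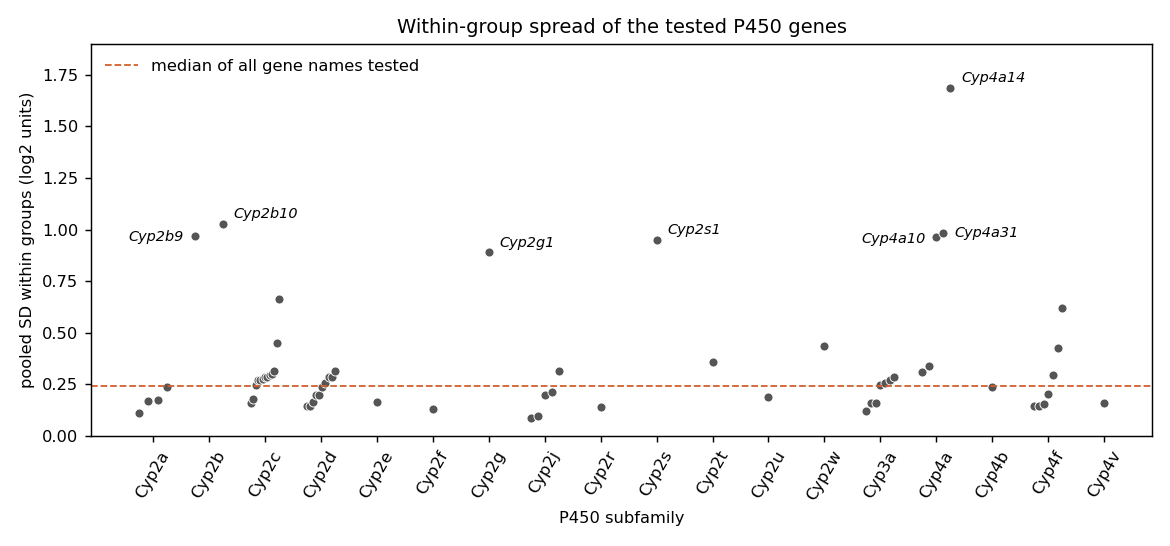
Pooled SD within the 3 groups (vertical axis, log2 units) of each tested P450 gene, 1 point per gene, by subfamily (horizontal axis). The dashed line is the median of all gene names tested (0.24), and the 7 named genes lie above 0.8.

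The fatty acid hydroxylases Cyp4a14, Cyp4a10 and Cyp4a31 were among the members with the widest spread. In Conv + PBS mice, Cyp4a14 ran from -2.03 to 3.50 with a median of 1.76, a 46.1-fold range in brightness among 6 control mice. In Conv + LM mice it was -1.02, 0.63, 1.97, 2.06 and 2.99, and in Conv + OM(HFD) mice 0.43, 1.85, 2.63, 3.39 and 3.40. The 3 groups overlapped over most of their range, and each held a mouse near or below 0.5 beside mice near 3. Cyp4a10 ran from 2.38 to 5.41 (median 4.46) in Conv + PBS mice and was 3.41, 3.85, 4.47, 4.80 and 5.48 in Conv + LM mice and 3.47, 4.24, 5.14, 5.51 and 5.69 in Conv + OM(HFD) mice. Cyp4a31 ran from 4.25 to 7.10 (median 6.27), and was 5.20, 5.39, 6.09, 6.64 and 7.25 with lean microbiota and 5.24, 5.83, 6.94, 7.44 and 7.44 with HFD-microbiota. The mice at the ends were the same for all 3 genes: Conv + PBS mouse 2, Conv + LM mouse 13 and Conv + OM(HFD) mouse 25 were the lowest of their groups, and mice 6, 17 and 30 the highest. By contrast Cyp4a12a and Cyp4a12b, the male-biased arachidonic acid 20-hydroxylases of the same subfamily, had SDs of 0.34 and 0.31.

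These genes lie side by side on chromosome 4 and belong to the same subfamily, so some of their probes are shown. How alike the whole transcripts are was not measured. Those of Cyp4a10 and Cyp4a31 are not the brightest probes, which gave the values above, while that of Cyp4a14 is its only one. Positions are the array's own, on mm9, and capitals mark the bases of the first 2 probes that align with each other.
Cyp4a10, chr4:115197445-115197926, plus strand, across a splice junction: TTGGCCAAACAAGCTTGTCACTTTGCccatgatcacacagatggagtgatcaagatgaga
Cyp4a31, chr4:115242872-115242931, plus strand: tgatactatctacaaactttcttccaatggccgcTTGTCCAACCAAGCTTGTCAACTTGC
Cyp4a10, chr4:115198463-115198522, plus strand: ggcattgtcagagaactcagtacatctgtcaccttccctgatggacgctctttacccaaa
Cyp4a14, chr4:115168609-115168668, minus strand: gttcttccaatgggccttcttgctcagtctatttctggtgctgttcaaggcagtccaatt
The first pair matched at 22 of 26 aligned bases out of 60 each. The Cyp4a14 probe matched that of Cyp4a31 at 16 of 18 aligned bases, which are not marked. Cyp4a10 was read by 3 probes, and their log2 fold changes in Conv + OM(HFD) vs. Conv + PBS mice were 0.47, 0.51 and 0.52, while the 2 probes of Cyp4a31 gave 0.52 and 0.53. How much each probe reads of the other genes was not tested.

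**Figure D2:**
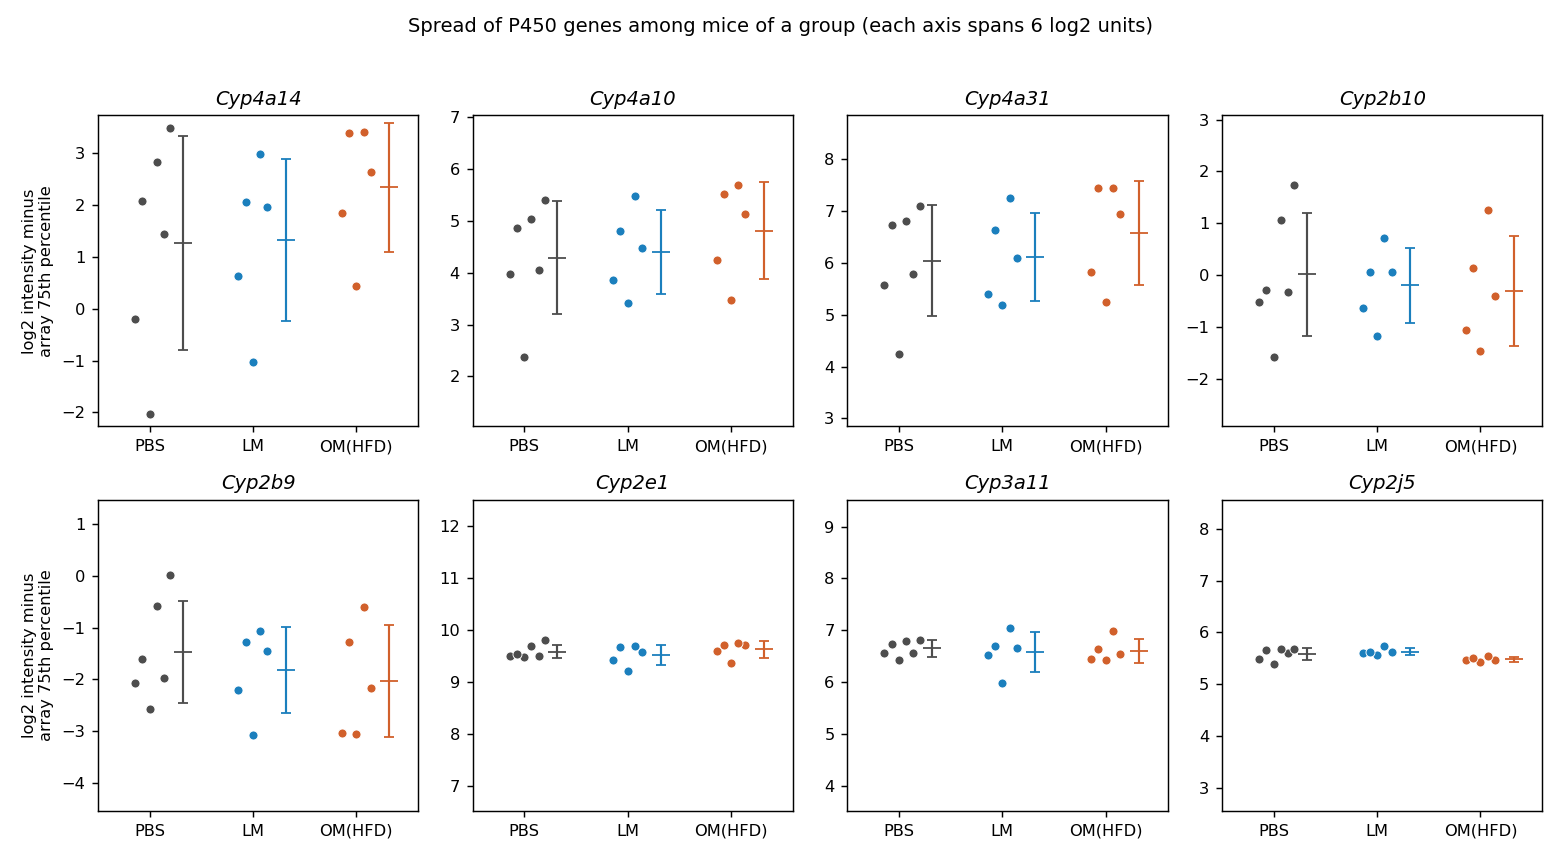
Level of 8 P450 genes in each mouse (vertical axis, log2 intensity minus the 75th percentile of the array, spanning 6 units in every panel) in the 3 groups. Points are mice, spread sideways only for legibility, and bars are the group mean and SD. Cyp4a14 ran from -2.03 to 3.50 in Conv + PBS mice, while Cyp2j5 stayed between 5.38 and 5.69 there.

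To ask which regulators these enzymes varied with, pairs of genes were compared as deviations from their group means over all 16 mice, with 100000 permutations within groups and adjustment over the 11 pairs that could be computed (a pair with Cyp2b13 could not). Cyp4a14 varied with Cyp4a10 (Pearson r = 0.96, permutation p = 1e-05, the smallest these permutations can give, adjusted p = 0.00011, and Spearman rho = 0.97, p = 1e-05, adjusted p = 0.00011). It also varied with Pdk4, a PPARα target that blocks glucose oxidation in fasting (r = 0.90, permutation p = 4e-05, adjusted p = 0.00022, rho = 0.92, p = 4e-05, adjusted p = 0.00022). Without the 2 mice farthest from the median of the second gene, r was 0.93 for Cyp4a10 and 0.89 for Pdk4, and within the 8 mice of each slide r was 0.97 and 0.89 for Cyp4a10 and 0.88 and 0.92 for Pdk4. With Ppara itself r was 0.71 (permutation p = 0.00509, adjusted p = 0.0187), rho was 0.64 (p = 0.0178, adjusted p = 0.0654), and r was 0.74 without the 2 farthest mice and 0.60 and 0.74 within slides. The relation with Ppara did not pass with the authors' processed values (r = 0.57), with quantile normalization (r = 0.61) or without Conv + PBS mouse 6 (r = 0.66).

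Pdk4 ran from -0.90 to 4.22 (median 1.56) in Conv + PBS mice, with an SD of 2.03 within groups. Its log2 fold change was -0.03 (SE 1.13) in Conv + OM(HFD) vs. Conv + PBS, -0.75 (SE 1.13) in Conv + LM vs. Conv + PBS and 0.72 (SE 1.18) in Conv + OM(HFD) vs. Conv + LM mice, and none was called. Of the 14 PPARα targets outside the P450 genes, all of which were tested, 12 had r over 0.5 with Cyp4a14, as against 13.8% of all gene names tested. They included Acot1 (0.92), Angptl4 (0.84), Acot2 (0.83), Ehhadh (0.80) and Fgf21 (0.71), which act in fatty acid breakdown or signal the fasted state. None of the 14 was called in Conv + OM(HFD) vs. Conv + PBS mice. The gene names share the same 16 mice, so that these counts are a description.

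Among 13 clock genes and their outputs, 4 had r over 0.5 with Cyp4a14 (30.8%, against 13.8% of all gene names) and 2 had r under -0.5 (15.4%, against 10.4%). Those that rose with it were Arntl (0.89), Nfil3 (0.87), Clock (0.81) and Cry1 (0.80), and Dbp, a clock-driven transcription factor, went the other way (-0.85). Over the pairs chosen after their values were seen, which are given with no test, r of Cyp4a14 with Dbp was -0.85 (rho -0.89) and stayed at -0.87 without the 2 farthest mice. Dbp lay between 4.24 and 6.17 (median 5.2) in Conv + PBS mice, and was 4.01, 4.9998, 5.11, 5.57 and 6.02 with lean microbiota and 3.66, 4.38, 5.26, 5.34 and 6.03 with HFD-microbiota. Each group thus spanned about the same range of Dbp. These values were not independent of the mouse numbers in the labels: Dbp was 6.17 in Conv + PBS mouse 1 and 4.24 in mouse 6, 6.02 in Conv + LM mouse 13 and 4.01 in mouse 17, and 6.03 in Conv + OM(HFD) mouse 25 and 3.66 in mouse 30, with the other mice between in the order of their numbers. What the numbers stand for is not given in the sources used here. The permutation p-values of all pairs above and below take the mice of a group as exchangeable, which these values put in doubt for Cyp4a14 and the genes that varied with it. The part that feeding or the hour of sampling had in the spread was not tested.

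**Figure D3:**
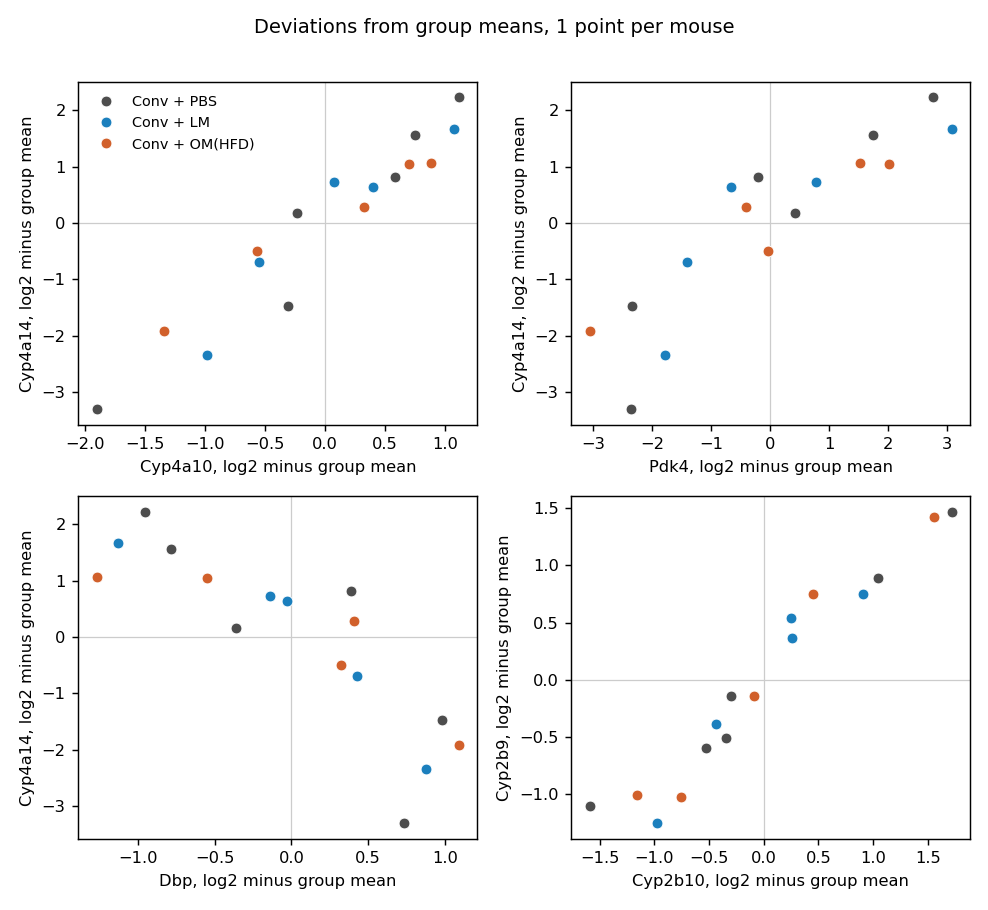
Deviations from the group mean (log2 units), 1 point per mouse and a colour per group, of Cyp4a14 (vertical) against Cyp4a10, Pdk4 and Dbp (horizontal) and of Cyp2b9 against Cyp2b10. Pearson r was 0.96, 0.90, -0.85 and 0.97 over 16 mice.

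Cyp2b10, the phenobarbital-inducible target of CAR, and its female-biased relative Cyp2b9 formed a second set of variable members. Cyp2b10 ran from -1.58 to 1.74 (median -0.31) in Conv + PBS mice, and was -1.17, -0.63, 0.05, 0.06 and 0.72 in Conv + LM mice and -1.47, -1.06, -0.40, 0.14 and 1.25 in Conv + OM(HFD) mice. Cyp2b9 ran from -2.57 to 0.00 (median -1.80), and was -3.08, -2.21, -1.46, -1.28 and -1.07 with lean microbiota and -3.06, -3.04, -2.17, -1.28 and -0.61 with HFD-microbiota. Conv + PBS mice 5 and 6 and Conv + OM(HFD) mouse 30 were high for both genes, as was Conv + LM mouse 14 within its group, and the groups overlapped throughout. Without Conv + PBS mice 5 and 6, a choice made after seeing the data, the SD of Cyp2b10 was 0.84. Their deviations went together (r = 0.97, rho = 0.98, without the 2 farthest mice 0.95, a pair chosen after its values were seen), although their probes share a run of only 10 bases. With Cyp4a14, Cyp2b10 had r = 0.30, with 0.74 on slide 1 and 0.34 on slide 2.

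None of the 4 tested pairs with Cyp2b10 passed. With Nr1i3 r was 0.11 (permutation p = 0.716, adjusted p = 0.87) and rho 0.04 (p = 0.891, adjusted p = 0.912). With Alas1, the first enzyme of haem synthesis and also a CAR and PXR target, r was -0.01 (permutation p = 0.978, adjusted p = 0.978) and rho 0.04 (p = 0.887, adjusted p = 0.912). With Dbp r was -0.32 (permutation p = 0.264, adjusted p = 0.415) and rho -0.25 (p = 0.385, adjusted p = 0.606), but r was -0.98 on slide 1 and 0.04 on slide 2. Within slides r was 0.21 and 0.25 with Nr1i3 and 0.40 and -0.10 with Alas1, and without the 2 farthest mice it was -0.20 with Nr1i3, -0.05 with Alas1 and -0.35 with Dbp. Cyp2c29, another CAR target, had r = -0.43 with Cyp2b10 (permutation p = 0.126, adjusted p = 0.232, rho -0.31, p = 0.285, adjusted p = 0.522), with -0.47 and -0.39 within slides and -0.19 without the 2 farthest mice. Of 17 other CAR and PXR targets, 5 had r over 0.5 with Cyp2b10, as against 2.71% of all gene names, the closest being the efflux pump Abcb1a (0.88, with 0.79 without the 2 farthest mice and 0.92 and 0.94 within slides, a pair chosen after its values were seen).

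Dbp is known to act on Cyp2a5 through a D-box close to its start, so promoters were searched for 3 forms of this motif, and also for elements named DR1, DR4, NF1 and HNF1. The 250 bases before and 50 after the start were taken from RefSeq on GRCm38.p6, which held 61 of the member genes. Promoters of the other members, among them Cyp4a10, Cyp4a14 and Cyp4a31, were not searched. TTATGCAA on either strand was found in 6 members, Cyp2a4, Cyp2a5, Cyp2b10, Cyp2b19, Cyp2b23 and Cyp4f14, and in 0.743% of all 32851 promoters. TTATGTAA (0.938% of all promoters) and TTACGTAA (0.119%) were found in no member, and neither were DR1, DR4, NF1 or HNF1 in the forms searched, except that a relaxed DR1 was found in Cyp2d9, Cyp2d10 and Cyp2d40 and in 0.381% of all promoters. All D-box matches were on the minus strand of the gene, and capitals mark them below.
Cyp2a5, chr7:26835253-26835290, plus strand: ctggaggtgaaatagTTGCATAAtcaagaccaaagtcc
Cyp2a4, chr7:26307107-26307144, plus strand: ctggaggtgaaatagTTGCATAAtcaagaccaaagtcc
Cyp2b10, chr7:25897585-25897622, plus strand: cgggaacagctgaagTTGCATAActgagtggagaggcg
Cyp4f14, chr17:32917115-32917152, minus strand: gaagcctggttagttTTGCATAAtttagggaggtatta
In Cyp2a5 the match lay 64 to 71 bases before the start, and the stretch shown was letter for letter that of Cyp2a4. The stretch of Cyp2b10 matched that of Cyp2b23 at 36 and that of Cyp2b19 at 30 of 38 bases, so the matches within Cyp2a and within Cyp2b are not separate from each other. A match is a description of the sequence and no evidence of binding. Cyp2a5 had r = 0.08 with Dbp over the 16 mice (permutation p = 0.782, adjusted p = 0.87) and rho = 0.15 (p = 0.62, adjusted p = 0.853), with 0.06 and 0.09 within slides and 0.11 without the 2 farthest mice, and Dbp itself had an SD of 0.83. Cyp2g1, an olfactory P450 gene, had r = 0.82 with Dbp (rho 0.85, without the 2 farthest mice 0.74, a pair chosen after its values were seen).

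A further set of genes followed each other in Cyp2c, the subfamily of epoxygenases and drug hydroxylases. Deviations of Cyp2c54 had r = 0.95 with Cyp2c50 and 0.95 with Cyp2c37 (rho 0.87 for both), and 0.87 and 0.88 without the 2 farthest mice. With Nr1i3 r was 0.79, and 0.54 without the 2 farthest mice. These pairs were chosen after their values were seen. Among the other pairs, Cyp3a11, the main target of PXR in mouse liver, had r = 0.48 with Nr1i2 (permutation p = 0.0841, adjusted p = 0.185, rho 0.37, p = 0.19, adjusted p = 0.418), with 0.93 on slide 1, -0.18 on slide 2 and 0.40 without the 2 farthest mice. Cyp4a12a and Cyp2d9, both male-biased, had r = 0.08 (permutation p = 0.791, adjusted p = 0.87, rho 0.03, p = 0.912, adjusted p = 0.912), with 0.21 and -0.03 within slides and -0.14 without the 2 farthest mice.

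Cyp2e1, which is confined to hepatocytes around the central vein, had r = 0.68 with Glul, glutamine synthetase of the innermost of these cells (permutation p = 0.0232, adjusted p = 0.0638, rho 0.42, p = 0.134, adjusted p = 0.368). This rested on Conv + LM mouse 14 and Conv + OM(HFD) mouse 25, and r was -0.06 without them, 0.93 on slide 1 and 0.00 on slide 2. Glul was 4.77 and 4.94 in these 2 mice, and they had the lowest Cyp2e1 of their groups (9.22 and 9.37). Of the 10 pericentral markers, none was called in any of the 3 comparisons, and the mean of the list ran from 3.01 to 3.60 in Conv + PBS mice, from 3.02 to 3.78 with lean microbiota and from 2.94 to 3.25 with HFD-microbiota.

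The study asked what the HFD-microbiota does to the liver of lean recipients, with lean microbiota and vehicle as references. No member passed an adjusted p of 0.05 in limma in any of the 3 comparisons, and neither did any of the 20404 gene names (0.0% in Conv + OM(HFD) vs. Conv + PBS, 0.0% in Conv + LM vs. Conv + PBS and 0.0% in Conv + OM(HFD) vs. Conv + LM mice). The smallest adjusted p of a member was 0.997, and 661, 804 and 551 gene names had an unadjusted p under 0.05. Calls below are therefore at an unadjusted limma p under 0.05, and the comparisons with vehicle share the Conv + PBS mice.

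In Conv + OM(HFD) vs. Conv + PBS mice, 1 of 63 members was higher (1.59%, against 1.52% of all gene names) and 3 were lower (4.76%, against 1.72%). No member had groups that did not overlap, as against 0.235% of all gene names. Leaving out mouse 25 ended all 3 lower calls, so that 1 call was left of 4. The median log2 fold change was -0.05 over the members and 0.00 over all gene names, with 42 members lower and 21 higher, and 33 lower and 30 higher without mouse 25. Without Conv + OM(HFD) mouse 30, 44 were lower and 19 higher.

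**Figure D4:**
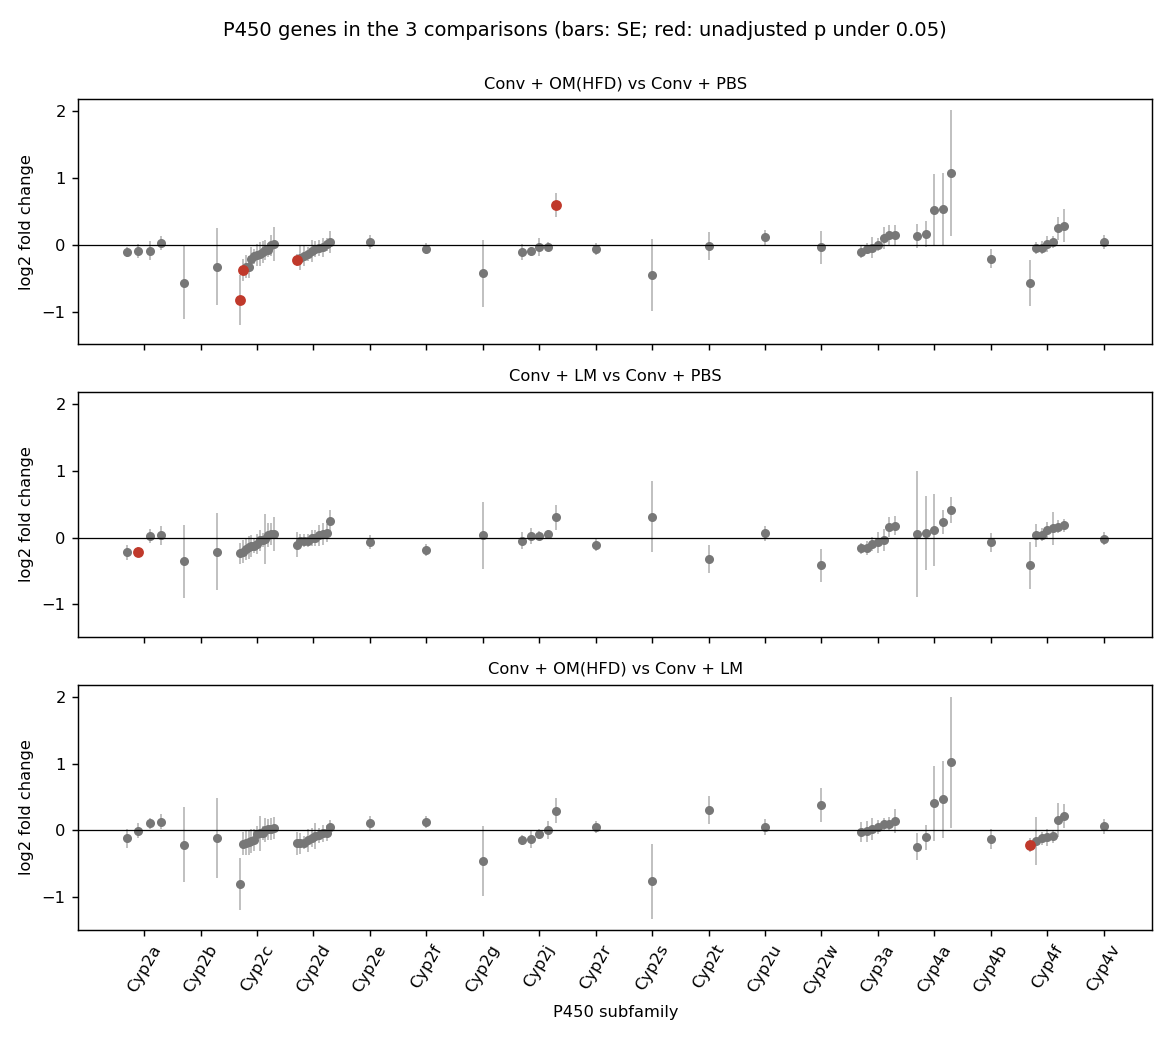
Log2 fold change with its SE (vertical axis) of each tested P450 gene, by subfamily (horizontal axis), in the 3 comparisons. Red points have an unadjusted limma p under 0.05, which held for 4, 1 and 1 of 63 genes.

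Cyp2j9, an arachidonic acid-metabolizing member of Cyp2j, was the gene that was higher. It ran from 0.62 to 1.67 (median 1.34) in Conv + PBS mice and was 1.52, 1.63, 1.88, 1.96 and 2.21 in Conv + OM(HFD) mice, all above the mean of the controls. The log2 fold change was 0.60 (SE 0.18, limma p = 0.00466, exact permutation p = 0.026), or 51.4% higher. It was 0.50 on slide 1 and 0.78 on slide 2, and a second, dimmer probe of the gene gave 0.60. In Conv + LM mice Cyp2j9 was 1.38, 1.47, 1.53, 1.63 and 1.72, overlapping the upper part of the control range and passing it in 1 mouse (0.30 above the control mean). The direct difference between recipients of the HFD-microbiota and of lean microbiota was 0.30 (95% interval -0.11 to 0.70). The second probe gave 0.00 for Conv + LM vs. Conv + PBS and 0.60 for Conv + OM(HFD) vs. Conv + LM mice, so the middle position of the lean-microbiota recipients was seen with the first probe alone.

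Cyp2c54 was lower with HFD-microbiota. It ran from 6.61 to 6.94 (median 6.71) in Conv + PBS mice and was 5.77, 6.29, 6.44, 6.46 and 6.80 in Conv + OM(HFD) mice, with 4 of 5 below every control. The log2 fold change was -0.38 (SE 0.16, limma p = 0.0309, exact permutation p = 0.0216), but it was -0.60 on slide 1 and -0.06 on slide 2, and -0.23 (p = 0.107) without mouse 25. The call was also lost without Conv + PBS mouse 3 (-0.33) or Conv + OM(HFD) mouse 28 (-0.36). Cyp2c37 and Cyp2c50, with log2 fold changes of -0.33 each (SE 0.17), were not called (limma p = 0.074 and 0.0684, exact permutation p = 0.0823 and 0.0801), and were -0.15 and -0.16 without mouse 25. Of the 13 tested members of Cyp2c, 12 had a negative log2 fold change and the median was -0.15, or -0.12 without mouse 25. These are not separate observations in full. The probes of Cyp2c67 and Cyp2c68 matched at 55 of 59 aligned bases, and Cyp2c54 varied with Cyp2c37 and Cyp2c50 as given above.

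Cyp2d22, a homologue of human CYP2D6, was lower by less. It ran from 0.94 to 1.12 (median 0.95) in Conv + PBS mice and was 0.46, 0.64, 0.84, 0.92 and 0.99 in Conv + OM(HFD) mice. All 5 lay below the mean of the controls, and the highest overlapped them. The log2 fold change was -0.23 (SE 0.09, limma p = 0.0275, exact permutation p = 0.026), and -0.15 (p = 0.0952) without mouse 25. The call was also lost without Conv + PBS mouse 2 or 4, without Conv + OM(HFD) mouse 29, and with the authors' processed values (-0.19). Over all single mice left out, the change of Cyp2d22 stayed between -0.28 and -0.15. The pseudogene Cyp2c53-ps was dim, above background in 4 of 6 Conv + PBS and 2 of 5 Conv + OM(HFD) mice, and fell by 0.82 (SE 0.37, limma p = 0.0441, exact permutation p = 0.0866). With normexp background correction its change was -0.09. Leaving out any of 10 single mice ended the call. Over all single mice left out, the change stayed between -1.075 and -0.59, and was -0.59 without mouse 25.

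The 5 tested members of Cyp4a had positive log2 fold changes, with a median of 0.52, and none was called. The largest was that of Cyp4a14, 1.07 (SE 0.94, 95% interval -0.94 to 3.08, limma p = 0.273, exact permutation p = 0.331). Cyp4a10 and Cyp4a31 followed with 0.52 (SE 0.54) and 0.53 (SE 0.55). Without mouse 25 the 3 values were 1.55, 0.86 and 0.87, and none was called. At this spread, the interval for Cyp4a14 held both lower and much higher levels than those of the controls. The median over the subfamily went from 0.14 to 0.86 when single mice were left out.

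In Conv + LM vs. Conv + PBS mice, no member was higher (against 1.72% of all gene names) and 1 of 63 was lower (1.59%, against 2.22%). No member had groups that did not overlap (0.279% of all gene names). The median log2 fold change was -0.01 over the members and over all gene names alike. The gene that was lower was Cyp2a5, with values of 8.25 to 8.48 (median 8.37) in Conv + PBS mice and of 8.04, 8.05, 8.12, 8.17 and 8.36 in Conv + LM mice, all 5 below the mean of the controls. Its log2 fold change was -0.22 (SE 0.08, limma p = 0.0145, exact permutation p = 0.0152), or 13.9% lower, with -0.23 on slide 1 and -0.21 on slide 2. Leaving out any 1 mouse kept it between -0.27 and -0.19, and it was not called with quantile normalization (-0.19) or the authors' processed values (-0.19). Cyp2a4, whose promoter matched that of Cyp2a5 at 245 of 249 aligned bases, had a log2 fold change of -0.22 (SE 0.11, limma p = 0.0576, exact permutation p = 0.039). In Conv + OM(HFD) mice Cyp2a5 lay between, at 8.14, 8.15, 8.22, 8.34 and 8.42. Cyp4a12a was 0.41 higher with lean microbiota (SE 0.19, limma p = 0.0502, exact permutation p = 0.0823), just outside the threshold.

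In Conv + OM(HFD) vs. Conv + LM mice, no member was higher (1.56% of all gene names) and 1 was lower (1.59%, against 1.14%). The gene was Cyp4f15, a member of the leukotriene hydroxylase subfamily, at 4.56, 4.57, 4.63, 4.78 and 4.86 with lean microbiota and 4.32, 4.33, 4.34, 4.53 and 4.76 with HFD-microbiota, 4 of 5 below every Conv + LM mouse. The log2 fold change was -0.22 (SE 0.10, limma p = 0.0476, exact permutation p = 0.0556), and leaving out any of 10 single mice ended the call. Cyp2j5 was the one member whose groups did not overlap (1.59% of members, against 0.456% of all gene names). It was 5.56, 5.61, 5.62, 5.63 and 5.73 in Conv + LM mice and 5.42, 5.47, 5.48, 5.51 and 5.54 in Conv + OM(HFD) mice. The difference of -0.15 (SE 0.07) had a limma p of 0.061 and an exact permutation p of 0.00794, the smallest that 5 mice against 5 can give. In Conv + PBS mice it ran from 5.38 to 5.69, overlapping both groups. With a second, dimmer probe of Cyp2j5 the groups overlapped, the range being -0.58 to -0.16 in Conv + LM and -0.53 to -0.37 in Conv + OM(HFD) mice, and the difference was -0.07.

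**Figure D5:**
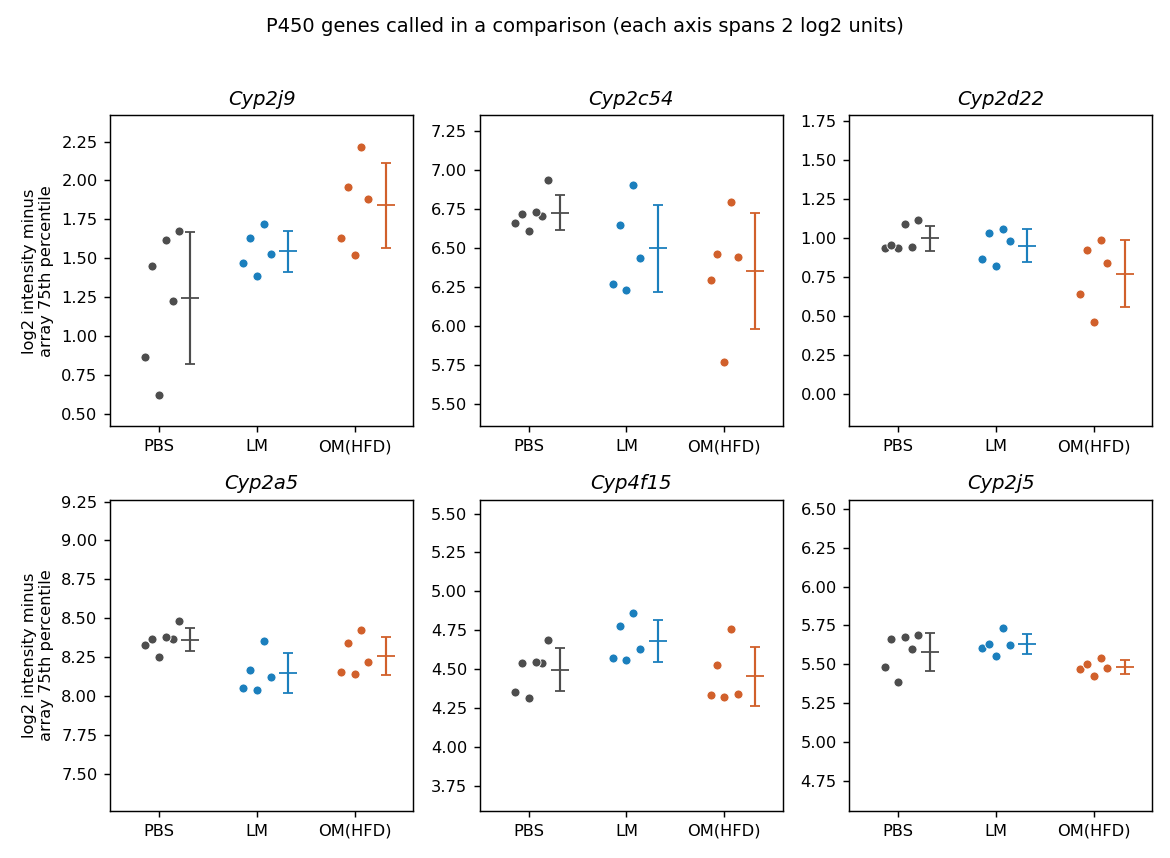
Level in each mouse (vertical axis, log2 intensity minus the 75th percentile of the array, spanning 2 units in every panel) of 6 P450 genes, namely 5 of the 6 called in a comparison and Cyp2j5. Points are mice, bars are the group mean and SD. Cyp2j9 was 1.52 to 2.21 in Conv + OM(HFD) and 0.62 to 1.67 in Conv + PBS mice.

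The other fixed representatives of the subfamilies were not called in any of the 3 comparisons. In Conv + OM(HFD) vs. Conv + PBS mice the log2 fold change was 0.04 (95% interval -0.18 to 0.26) for Cyp2e1, -0.04 (-0.38 to 0.30) for Cyp3a11, -0.17 (-0.41 to 0.06) for Cyp2c29 and -0.05 (-0.24 to 0.13) for Cyp2f2. In the same comparison it was -0.04 (-0.34 to 0.26) for Cyp2d9, a testosterone 16α-hydroxylase, 0.11 (-0.24 to 0.46) for Cyp3a13 and 0.15 (-0.16 to 0.46) for Cyp3a25. Cyp2r1 (-0.06), Cyp4f14 (0.05), Cyp4v3 (0.04) and Cyp4b1 (-0.21) were not called either, nor were Cyp2b10 (-0.33, interval -1.55 to 0.90) and Cyp2b9 (-0.56, interval -1.72 to 0.59). Without mouse 25 the log2 fold change was -0.03 for Cyp2b10, -0.31 for Cyp2b9, 0.11 for Cyp2d9, 0.10 for Cyp2e1, 0.00 for Cyp3a11, 0.01 for Cyp3a13 and 0.12 for Cyp4v3, and none of these was called. In Conv + LM vs. Conv + PBS mice the log2 fold change was -0.07 for Cyp2e1, -0.07 for Cyp3a11, -0.12 for Cyp2c29 and -0.18 for Cyp2f2. In Conv + OM(HFD) vs. Conv + PBS mice medians by subfamily were -0.07 over 10 members of Cyp2d (0.04 without mouse 25), -0.03 over 5 of Cyp2j, 0.01 over 7 of Cyp3a and 0.01 over 7 of Cyp4f.

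For Cyp2u1, an arachidonic acid hydroxylase, the brightest probe differed widely in level from the other probes. It lies at chr3:130996343-130996402 on mm9, minus strand, and holds 16 GT pairs in a row, which are in capitals in this stretch of it.
Cyp2u1: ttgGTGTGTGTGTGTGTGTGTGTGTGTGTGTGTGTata
Its group means ran from 8.999 to 9.11, whereas the other probes of the gene gave -0.77 and -1.16 in Conv + PBS mice. The log2 fold change in Conv + OM(HFD) vs. Conv + PBS mice was 0.11 with this probe and -0.04 and -0.10 with the others, none of them called. Wide gaps between probes were also seen elsewhere, as in Conv + PBS means of Cyp2j5 (5.58 and -0.31) and Cyp2c50 (7.10 and 0.36). Whether the repeat reads other transcripts was not tested.

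Of the partners that P450 enzymes need, Por had a log2 fold change of 0.09 and Cyb5a of 0.01 in Conv + OM(HFD) vs. Conv + PBS mice, and none of the 12 genes of haem synthesis and breakdown was called, Alas1 included (0.13, SE 0.20). Among 6 electron partners Cyb5r3, a cytochrome b5 reductase, was lower (-0.24, SE 0.10, limma p = 0.0279, exact permutation p = 0.026), where 1.72% of all gene names were. Among 10 receptors Nr1i2 was higher (0.24, SE 0.11, limma p = 0.0427, exact permutation p = 0.0498), where 1.52% of all gene names were. All 5 of 5 mice lay above the control mean, while Nr1i3 (0.03), Ppara (0.04) and Rxra (0.05) were not called. None of the 10 receptors was called in Conv + OM(HFD) vs. Conv + LM mice. Cyp3a11, the target of Nr1i2, was not called, and of the 17 other CAR and PXR targets only Abcb1a was called, lower in both Conv + OM(HFD) (-0.48, limma p = 0.0128, exact permutation p = 0.0346) and Conv + LM mice (-0.41, limma p = 0.0271, exact permutation p = 0.0584). Of all gene names, 1.72% and 2.22% were lower in these comparisons, which share the Conv + PBS mice.

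Among 15 tested genes of other P450 families, 2 were called in Conv + OM(HFD) vs. Conv + PBS mice. Both were lower, where 1.72% of all gene names were. Cyp26a1, which clears retinoic acid, ran from -1.84 to -0.30 (median -1.06) in Conv + PBS mice and was -2.19, -2.16, -2.11, -1.95 and -1.89 in Conv + OM(HFD) mice (-0.92, SE 0.30, limma p = 0.0077, exact permutation p = 0.0108). The values of the HFD-microbiota recipients were all below those of the controls, though the highest (-1.89) lay close to the lowest control (-1.84). Groups did not overlap for 0.235% of all gene names. The change was -0.45 on slide 1 and -1.39 on slide 2. Cyp26a1 was also lower in Conv + LM mice (-0.74, limma p = 0.0261, exact permutation p = 0.0952), with -0.06 and -1.35 within slides. Cyp20a1 was lower with HFD-microbiota (-0.54, limma p = 0.0112, exact permutation p = 0.013).
Beside these, 2 of 8 stellate cell markers were called lower in Conv + OM(HFD) vs. Conv + PBS mice, Lrat (-0.63) and Dcn (-0.26), with the mean of the list between -0.09 and 0.54 in Conv + PBS and 0.07 and 0.54 in Conv + OM(HFD) mice. Of all gene names, 1.72% were lower in this comparison, and many lists were searched. Of 8 sinusoidal endothelial markers Clec4g was called lower (-0.48), and of 6 bile duct markers Cftr (-0.76), a dim gene whose change was -0.37 without Conv + OM(HFD) mouse 29. In Conv + LM vs. Conv + PBS mice Mmp8, among 5 tested neutrophil markers, was lower (-1.23), where 2.22% of all gene names were. The mean of 8 Kupffer cell markers, none of them called, ran from 0.51 to 1.18 with lean microbiota. It ran from 0.86 to 1.41 in the Conv + PBS mice other than mouse 1, which had 3.27, and from 0.66 to 1.45 in the Conv + OM(HFD) mice other than mouse 25, which had 2.12. Their part in the P450 results was not tested.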

How the data were processed

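Liver RNA of 16 mice was hybridized to 1-colour Agilent arrays, 1 per mouse, on 2 slides (each slide held 8 mice, with mice of every group), and groups came from the sample labels. The authors deposited intensity values per spot from Agilent Feature Extraction 10.10.1.1, corrected for background and not normalized between arrays, and a table of log2 values, which followed log2 of the median intensity with r of at least 0.9997 and was used as an alternative. The submitters' processing notes also name limma. The order of the steps behind the log2 table is not given in the sources used here.

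Control spots were left out and spots of a probe averaged. From each log2 intensity, the 75th percentile of its array was taken away. Probes well above background on at least 5 arrays were kept (30664, for 20404 gene names), and the brightest stood for its gene. All 3 groups were fitted together with lmFit and eBayes of limma 3.58.1 (R 4.3.3) and adjusted by Benjamini-Hochberg. Exact two-sided permutation tests over mice can reach 0.00216 for 5 against 6 and 0.00794 for 5 against 5. The labels do not say more on how mice of a group relate, so p-values measure the spread between these mice. The fit was tested on simulated data. The number of arrays limits the precision.

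Genes named were those called, fixed representatives of each subfamily, the most and least variable, those of the pairs, list genes called and those with a mouse standing apart. Members, lists and pairs were chosen with earlier results of these data known, and lists were written from general knowledge. The alternatives were normexp (offset 50), quantile normalization, the authors' log2 values, filters, slide as a block, only the mice compared, array weights, other choices of probe, the methods' t-test and leaving out each mouse. After seeing the data, the brightest probe with a RefSeq accession, the spread without 2 mice and 12 further pairs were added. Probes are placed as in the deposited files (mm9), and promoters are from RefSeq (GRCm38.p6).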

Additional observations from a re-analysis of the deposited data

Results flagged for a closer look

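Over the 63 members and 3 groups, 189 sets of values were searched for a mouse far from the rest of its group by Dixon's ratio, and 9 held one (4.76%), where chance alone gives about 1 in 20. All 9 were low values. Conv + OM(HFD) mouse 25 accounted for 4 of them, all in Cyp2d: Cyp2d9 was 5.57 against 6.19 to 6.40 in the other mice of the group, Cyp2d10 was 8.24 against 8.72 to 8.86, Cyp2d11 was 8.59 against 9.14 to 9.27, and Cyp2d12 was 6.01 against 6.53 to 6.68. This mouse was the lowest of its group in 8 of 10 members of Cyp2d, and its mean of 8 Kupffer cell markers (2.12) was the highest of the group, where the others had 0.66 to 1.45. Conv + PBS mouse 1, with a higher mean (3.27), held 1 of the 9. The part of these cells in the values was not tested. The probes of Cyp2d10 and Cyp2d11 matched at 34 of 44 aligned bases, so that these are not separate observations in full.

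The others were spread over 5 mice. Cyp2d13 was 1.37 in Conv + OM(HFD) mouse 30 against 2.04 to 2.20 in the rest. Cyp2d34 was 1.03 in Conv + LM mouse 13 against 1.39 to 1.53, Cyp3a25 was 5.46 in mouse 17 against 5.92 to 6.10, and Cyp4v3 was 5.75 in mouse 14 against 6.11 to 6.19. Cyp2c44, an epoxygenase, was 5.88 in Conv + PBS mouse 1 against 6.20 to 6.34.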

How the results depend on the processing

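The number of members at an unadjusted limma p under 0.05 was 4 in Conv + OM(HFD) vs. Conv + PBS mice and was 2 with the authors' processed values. In Conv + LM vs. Conv + PBS mice it was 1, and 2 with normexp, the authors' values, the slide as a block, probes above background on every array or just the mice compared, and 3 with array weights or the methods' t-test. In Conv + OM(HFD) vs. Conv + LM mice it was 1, and 2 with normexp, the authors' values, the mean of all probes or the methods' t-test, 3 with quantile normalization, and 0 with no filter or only the mice compared. Leaving out single mice gave 1 to 6, 1 to 4 and 0 to 2 in the 3 comparisons. Cyp2j9 was called in Conv + OM(HFD) vs. Conv + PBS mice under every alternative run and without any single mouse. Pairs at an adjusted p under 0.05 were 3, and 2 to 4 without single mice. Over 6 subfamilies, medians without single mice ran from -0.23 to -0.06 for Cyp2c, -0.12 to 0.04 for Cyp2d, -0.10 to 0.00 for Cyp2j, -0.06 to 0.04 for Cyp3a, 0.14 to 0.86 for Cyp4a and -0.03 to 0.08 for Cyp4f. The causes were not tested. Mice were not paired, as no mouse number occurs in more than 1 group. The order of the numbers, which Dbp followed within each group, was not entered in any fit. Precision differed between genes: the 95% interval of Cyp4a14 in Conv + OM(HFD) vs. Conv + PBS mice ran from -0.94 to 3.08, and that of Cyp2f2 from -0.24 to 0.13.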
